A study of Caenorhabditis elegans with 20 samples.

Results

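The expression of 10 genes for small secreted peptides of the *C. elegans* epidermis is described, namely *cnc-1*, *cnc-2*, *cnc-4*, *cnc-6*, *nlp-27*, *nlp-28*, *nlp-29*, *nlp-30*, *nlp-31* and *nlp-34*. They were 10 of the 19856 genes listed at a single position in both deposited expression tables, and each was found by its name. The set was selected on the FPKM of the sexes, because *cnc-6* and *nlp-28* had been seen to be higher in males in every comparison of the sexes, so the sex differences of these genes are given as descriptions and nothing is supported with them. Every level is an FPKM value, that is, a fragment count scaled by transcript length and by the size of the library, which the authors' run of Cuffdiff pooled over the samples of a group. As single samples were not analysed, no difference between groups could be held against replicate spread and no statistical test was made. Depth behind each value is unknown.

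The nlp (neuropeptide-like protein) and cnc (caenacin) genes of this group encode short peptides that are made by epidermal cells and act in defence against fungi. Infection by the fungus *Drechmeria coniospora* and wounding of the cuticle induce *nlp-29* through the p38 kinase PMK-1, its adaptor TIR-1, the transporter-like protein SNF-12 and the STAT-like factor STA-2, and high salt induces *nlp-29* as well. The *cnc-2* gene is induced in the epidermis by DBL-1, a TGF-beta ligand released by neurons.

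RNA was sequenced from larvae of the first stage after 9.5 or 15 hr of feeding, in 20 samples that form 8 groups. The groups were gonadal cells of males, gonadal cells of hermaphrodites, whole animals of males and whole animals of hermaphrodites, with 3 samples each at 9.5 hr and 2 samples each at 15 hr. Gonadal cells were sorted as the somatic precursors Z1 and Z4 at 9.5 hr, or as the daughters of these cells at 15 hr, by the fluorescent protein Venus, which the *ehn-3a* promoter drives in the array *rdIs4*. Whole-animal cells came from dissociated larvae and were not sorted. Males were strain DZ683, with *tra-2(ar221)*, *xol-1(y9)* and *rdIs4*, and were XX animals turned into males by the temperature-sensitive *tra-2* allele. Hermaphrodites were strain DZ685, with *xol-1(y9)* and *rdIs4*, except that whole hermaphrodites at 9.5 hr were *xol-1(y9)* animals without the array. All groups thus carried *xol-1(y9)*, and all were raised at the temperature that is restrictive for *tra-2(ar221)*. Sex and the *tra-2* allele cannot be told apart in these data, nor, in whole animals at 9.5 hr, sex and the array. For hermaphrodites of the earlier time the array is likewise tied to cell type, since only the sorted cells carried it. A change with time in whole hermaphrodites is tied to the array too, which only the later group carried.

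The sort was checked with 5 genes of the somatic gonad, including *ehn-3* itself. Their summed level was 457 FPKM in gonadal cells of males and 427 FPKM in those of hermaphrodites at 9.5 hr, against 35.2 FPKM in whole males and 43.9 FPKM in whole hermaphrodites. Their sums at 15 hr were 377 FPKM in gonadal cells of males and 240 FPKM in those of hermaphrodites, against 31.8 FPKM in whole males and 30.4 FPKM in whole hermaphrodites. Of the 5 genes *hnd-1* went the other way, with 1.12 FPKM in gonadal cells of males and 0.161 FPKM in those of hermaphrodites at 9.5 hr, against 1.48 FPKM in whole males and 2.30 FPKM in whole hermaphrodites, and it was listed at 0 in male gonadal cells at 15 hr. At 15 hr *ehn-3* was low as well, with 2.08 FPKM in gonadal cells of males and 0.287 FPKM in those of hermaphrodites, against 0.261 FPKM in whole males and 0.592 FPKM in whole hermaphrodites. The values of all genes in a group summed to between 692935 and 784030 FPKM, and the 4 groups of each time were normalized in a separate Cuffdiff run. All 13 epidermal marker genes that were searched for had a level above 0 in every group.

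The 10 genes lie at 3 places. On ce10, the genome build of the deposited tables, *nlp-34*, *nlp-31*, *nlp-30*, *nlp-29*, *nlp-28* and *nlp-27* lie in this order within 10.9 kb of chromosome V (3978811 to 3989755), and the tables list no other gene among them. A shorter stretch of chromosome V (1444044 to 1450174, 6.13 kb) holds *cnc-1*, *cnc-4* and *cnc-2* together with *cnc-5* and *cnc-3*, which are not among the 10 genes. The last gene, *cnc-6*, lies alone on chromosome III (1763515 to 1764827). In the WBcel235 annotation each of the 10 genes has 2 exons, none overlaps another gene, and the longest transcripts run from 189 bases for *cnc-1* to 714 bases for *nlp-30*. With single-end reads of 50 bases, few positions in a transcript as short as that of *cnc-1* can start a read.

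Levels of the nlp genes in the chromosome V cluster spanned a wide range. The most abundant member in all 8 groups was *nlp-34*. At 9.5 hr *nlp-34* had 254 FPKM in gonadal cells of males and 171 FPKM in those of hermaphrodites, and 507 FPKM in whole males and 264 FPKM in whole hermaphrodites. At 15 hr *nlp-34* had 119 FPKM in gonadal cells of males and 103 FPKM in those of hermaphrodites, and 349 FPKM in whole males and 210 FPKM in whole hermaphrodites. This single gene made up between 39.3% of the summed FPKM of the 10 genes, in hermaphrodite whole animals at 9.5 hr, and 67.7%, in hermaphrodite gonadal cells at 15 hr.

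The best studied member, *nlp-29*, had 156 FPKM in gonadal cells of males and 102 FPKM in those of hermaphrodites at 9.5 hr, and 141 FPKM in whole males and 75.4 FPKM in whole hermaphrodites. At 15 hr *nlp-29* had 29.6 FPKM in gonadal cells of males and 26.7 FPKM in those of hermaphrodites, and 62.4 FPKM in whole males and 67.1 FPKM in whole hermaphrodites. It was therefore the second most abundant member in gonadal cells of both sexes at both times. In whole animals at 9.5 hr it was the third, behind *nlp-34* and *nlp-27*, which had 227 FPKM in males and 187 FPKM in hermaphrodites.

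Levels of *nlp-27*, the gene at the end of the cluster next to *nlp-28*, were 40.3 FPKM in gonadal cells of males and 42.6 FPKM in those of hermaphrodites at 9.5 hr. At 15 hr *nlp-27* had 10.1 FPKM in gonadal cells of males and 8.06 FPKM in those of hermaphrodites, and 68.1 FPKM in whole males and 53.0 FPKM in whole hermaphrodites. The sexes thus differed by less than 2-fold in *nlp-27* at each time and in each kind of sample. Its neighbour *nlp-28* had 58.9 FPKM in gonadal cells of males and 22.7 FPKM in those of hermaphrodites at 9.5 hr, and 80.3 FPKM in whole males and 33.02 FPKM in whole hermaphrodites. At 15 hr *nlp-28* had 6.94 FPKM in gonadal cells of males and 2.43 FPKM in those of hermaphrodites, and 18.1 FPKM in whole males and 7.29 FPKM in whole hermaphrodites. All 4 male values of *nlp-28* were above the hermaphrodite value of the same kind of sample and time, which is the pattern the set was picked for.

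The remaining nlp genes are *nlp-31* and *nlp-30*. The peptide of *nlp-31* is known to act against fungi in culture, and the gene had 13.3 FPKM in gonadal cells of males and 6.42 FPKM in those of hermaphrodites at 9.5 hr, and 56.2 FPKM in whole males and 31.8 FPKM in whole hermaphrodites. At 15 hr *nlp-31* had 4.84 FPKM in gonadal cells of males and 3.48 FPKM in those of hermaphrodites, and 31.5 FPKM in whole males and 19.2 FPKM in whole hermaphrodites. At 9.5 hr *nlp-31* was thus below *nlp-28* in all 4 groups, and at 15 hr it was above *nlp-28* in all groups but male gonadal cells. The least abundant nlp member in all groups but hermaphrodite whole animals at 15 hr, where *nlp-28* was slightly lower, was *nlp-30*. Its level stayed between 1.69 FPKM, in hermaphrodite gonadal cells at 15 hr, and 12.6 FPKM, in whole males at 15 hr.

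Among the cnc members, *cnc-4* had the highest level in every group but male whole animals at 9.5 hr and hermaphrodite whole animals at 9.5 hr, where *cnc-2* was above it. At 9.5 hr *cnc-2* had 10.8 FPKM in gonadal cells of males and 8.35 FPKM in those of hermaphrodites, and 59.7 FPKM in whole males and 32.04 FPKM in whole hermaphrodites. At 15 hr *cnc-2* had 2.67 FPKM in male gonadal cells and was listed at 0 in hermaphrodite gonadal cells, and it had 4.88 FPKM in whole males and 2.03 FPKM in whole hermaphrodites. The levels of *cnc-2* were thus lower in every group of the 15 hr run, and those of its neighbour *cnc-4* were not. At 9.5 hr *cnc-4* had 13.8 FPKM in gonadal cells of males and 12.1 FPKM in those of hermaphrodites, and 46.5 FPKM in whole males and 30.9 FPKM in whole hermaphrodites. At 15 hr *cnc-4* had 13.1 FPKM in gonadal cells of males and 6.43 FPKM in those of hermaphrodites, and 59.3 FPKM in whole males and 47.6 FPKM in whole hermaphrodites.

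The other cnc members, *cnc-6* and *cnc-1*, had at most 10.3 FPKM in any group. At 9.5 hr *cnc-6* had 0.939 FPKM in gonadal cells of males and 0.399 FPKM in those of hermaphrodites, and 7.94 FPKM in whole males and 2.04 FPKM in whole hermaphrodites. At 15 hr *cnc-6* had 1.53 FPKM in gonadal cells of males and 0.319 FPKM in those of hermaphrodites, and 2.73 FPKM in whole males and 0.459 FPKM in whole hermaphrodites. The level of *cnc-6* was thus under 1 FPKM in 4 of the 8 groups, including gonadal cells of both sexes at 9.5 hr. For *cnc-1* the value was 5.14 FPKM in male gonadal cells at 9.5 hr and 0 in hermaphrodite gonadal cells, against 4.90 FPKM in whole males and 10.3 FPKM in whole hermaphrodites. At 15 hr *cnc-1* was listed at 0 in gonadal cells of both sexes and in male whole animals, and had 3.49 FPKM in hermaphrodite whole animals. A value of 0 in a table without counts can be a failed estimate, so no fold of FPKM is given against it. Ratios of levels with 1 FPKM added stay defined at 0, and genes at 0 enter the counts and medians below.

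**Figure D1:**
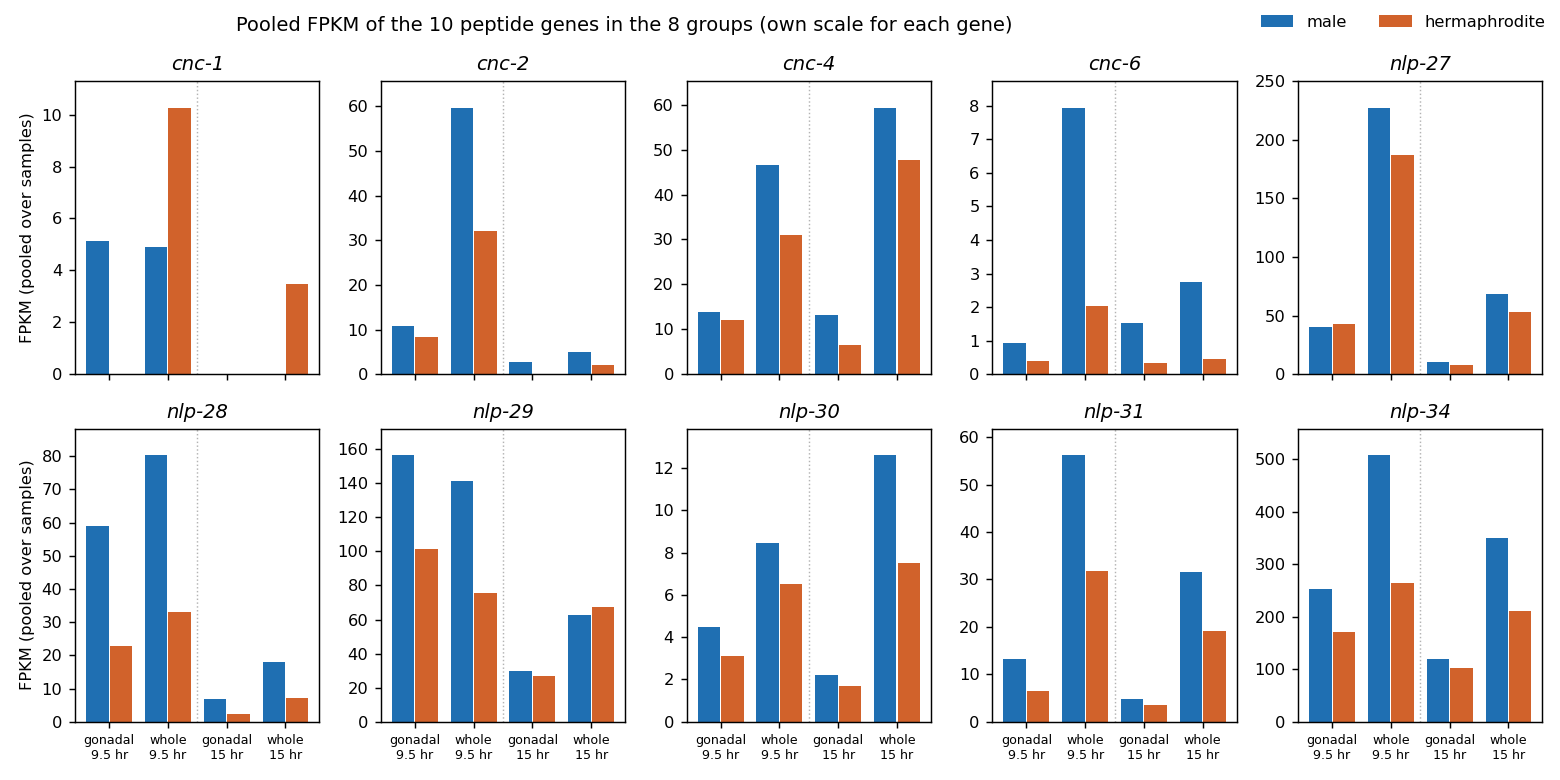
Pooled FPKM (y axis, a scale of its own for each gene, starting at 0) of the 10 peptide genes in gonadal cells and whole animals at 9.5 and 15 hr (x axis), with males in blue left of hermaphrodites in orange. The bars carry no error because the deposited values are pooled over samples. The bars of *nlp-28* and *cnc-6* are higher in males at all 4 places on the x axis, and those of *cnc-1* are missing where it was listed at 0.

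The first question was how males and hermaphrodites differed in these genes. For each gene the ratio of FPKM plus 1 between the groups was taken on the log2 scale, which understates the difference of low genes, and genes with a mean of at least 1 FPKM over the 4 groups of a run were kept. All 10 members were kept at 9.5 hr and 9 at 15 hr, *cnc-1* falling below the mean at 15 hr. In 3 of the 4 comparisons of the sexes no member passed a log2 ratio of 2 in size, a 4-fold difference, and in the fourth only *cnc-1* did, through a value of 0. Of all genes kept, the share higher in males by 4-fold was 0.405% in gonadal and 0.386% in whole-animal cells at 9.5 hr, and 1.32% in gonadal and 0.229% in whole-animal cells at 15 hr. These thresholds, and all fold thresholds below, are on the scale of FPKM + 1. Smaller differences toward males were common among the members. The member with the highest ratio was *cnc-6* in whole animals at both times, *cnc-1* in gonadal cells at 9.5 hr and *cnc-2* in gonadal cells at 15 hr, each of these last against a value of 0 in hermaphrodites.

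In *nlp-28* the log2 ratio of males over hermaphrodites was 1.33 in gonadal and 1.26 in whole-animal cells at 9.5 hr. At 15 hr the ratio of *nlp-28* was 1.21 in gonadal cells and 1.20 in whole animals. These are folds of FPKM of 2.59 and 2.43 at 9.5 hr and of 2.86 and 2.48 at 15 hr, a narrow range across sorted and unsorted cells. In whole animals at 15 hr 0.942% of all genes kept had a ratio as high as that of *nlp-28* or higher, and in gonadal cells at the same time the share was 5.26%.

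In *cnc-6* the log2 ratio of males over hermaphrodites was 0.47 in gonadal and 1.56 in whole-animal cells at 9.5 hr, and 0.94 in gonadal and 1.36 in whole-animal cells at 15 hr. As folds of FPKM without the added 1, males had 2.35 and 3.89 times the hermaphrodite level of *cnc-6* at 9.5 hr and 4.82 and 5.96 times at 15 hr. The gap between both ways of stating the difference shows how low the *cnc-6* levels were. With 0.1 added in place of 1, the log2 ratio of *cnc-6* in whole animals at 15 hr was 2.34.

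The other 8 members were not named when the pattern was picked, yet they were chosen beside *nlp-28* and *cnc-6* with the results known. Among them, 7 of 8 had a ratio above 0 in gonadal cells at 9.5 hr, with a median of 0.49, and 7 of 8 in whole animals at 9.5 hr, with a median of 0.69. At 15 hr 7 of the 7 kept were above 0 in gonadal cells, with a median of 0.30, and 6 of 7 in whole animals, with a median of 0.68. Over all genes kept the median ratio lay at 0.02 in gonadal and at -0.03 in whole-animal cells at 9.5 hr, and at 0.09 in gonadal and 0.01 in whole-animal cells at 15 hr. The share of all genes with a ratio above 0 was 52.0%, 45.4%, 56.4% and 52.3% in the same order.

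Within the nlp cluster the ratio differed from gene to gene over short distances. For *nlp-27*, whose start lies 1.48 kb from that of *nlp-28*, the log2 ratio of males over hermaphrodites was -0.08 in gonadal and 0.28 in whole-animal cells at 9.5 hr, and 0.30 in gonadal and 0.36 in whole-animal cells at 15 hr. On the other side of *nlp-28*, *nlp-29* had ratios of 0.62 in gonadal and 0.90 in whole-animal cells at 9.5 hr, and of 0.14 in gonadal and -0.10 in whole-animal cells at 15 hr. In each comparison *nlp-28* thus lay above both of the genes that flank it. The ratios of *nlp-34* and *nlp-31*, at the far end of the cluster, ran from 0.20 to 0.94 and from 0.38 to 0.95 over the 4 comparisons.

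As a share of the summed FPKM of the 10 genes, *nlp-28* made up 10.6% in male and 6.17% in hermaphrodite gonadal cells at 9.5 hr, and 7.05% in male and 4.90% in hermaphrodite whole animals. At 15 hr the share of *nlp-28* was 3.66% in male and 1.59% in hermaphrodite gonadal cells, and 2.97% in male and 1.74% in hermaphrodite whole animals. The male excess of *nlp-28* was thus present relative to the other members too, which is a description of the gene the set was picked for.

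**Figure D2:**
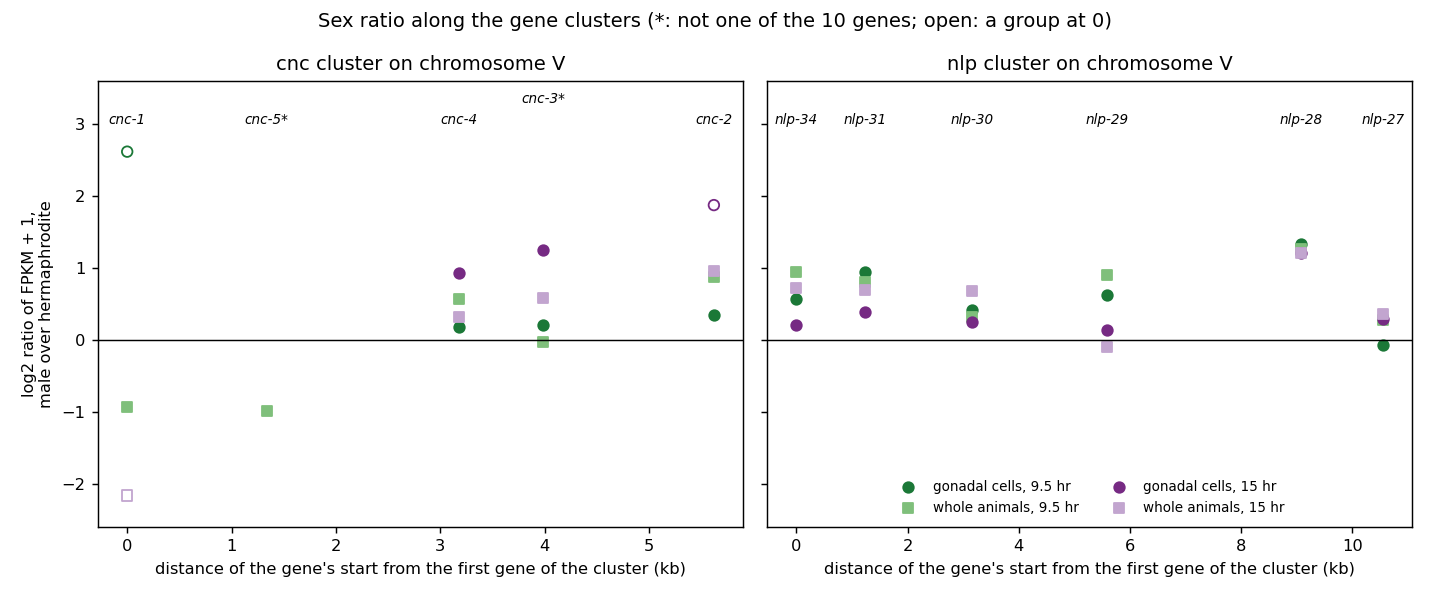
The log2 ratio of FPKM + 1 of males over hermaphrodites (y axis) against the distance in kb of each gene's start from the first gene of its cluster on chromosome V (x axis), for the cnc cluster (left) and the nlp cluster (right). Colours and shapes mark the 4 comparisons of the sexes, open symbols mark a group listed at 0, no symbol is drawn where both groups were at 0, and a star marks *cnc-5* and *cnc-3*. The 4 values of *nlp-28* lie close together, between 1.20 and 1.33.

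In the cnc cluster, *cnc-4* had log2 ratios of males over hermaphrodites of 0.18 in gonadal and 0.58 in whole-animal cells at 9.5 hr, and of 0.93 in gonadal and 0.31 in whole-animal cells at 15 hr. The ratios of *cnc-2* were 0.34 in gonadal and 0.88 in whole-animal cells at 9.5 hr, and 0.96 in whole animals at 15 hr. Both genes were thus higher in males wherever both sexes had a level above 0. The direction of *cnc-1* was not steady, since its level was above 0 only in males in gonadal cells at 9.5 hr and lower in males in whole animals at both times.

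Counted at the smaller log2 ratio of 1, a 2-fold difference, 2 members were higher in males in each comparison. They were *cnc-1* and *nlp-28* in gonadal cells at 9.5 hr, *cnc-2* and *nlp-28* in gonadal cells at 15 hr, and *cnc-6* and *nlp-28* in whole animals at both times. Of all genes kept, 3.38% were higher in males by this measure in gonadal and 2.04% in whole-animal cells at 9.5 hr, and 8.47% in gonadal and 1.41% in whole-animal cells at 15 hr. Because the set was chosen for its sex ratios, nothing is read from these counts.

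**Figure D3:**
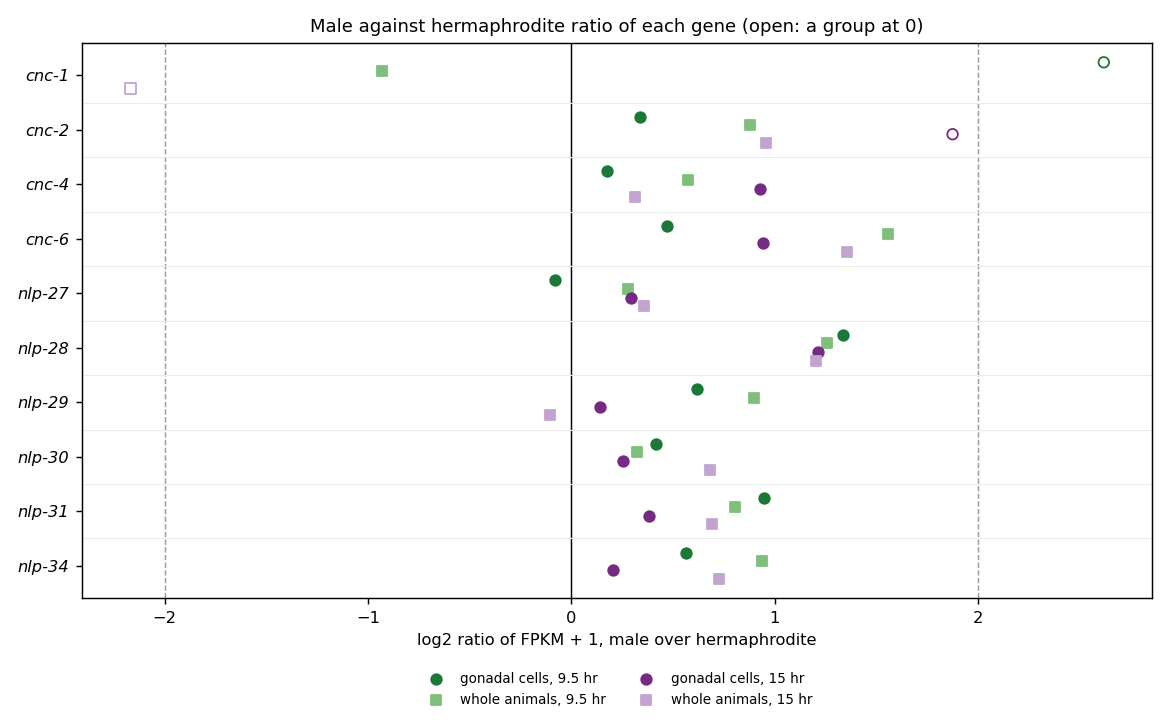
The log2 ratio of FPKM + 1 of males over hermaphrodites (x axis) for the 10 genes (y axis) in the 4 comparisons of the sexes, with dashed lines at a 4-fold difference. Open symbols mark a group listed at 0, and no symbol is drawn where both groups were at 0. The 8 values of *nlp-28* and *cnc-6* lie between 0.47 and 1.56, right of 0.

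Genes that mark the epidermis had unlike levels in the sexes as well. The summed level of the 13 epidermal markers was 216 FPKM in gonadal cells of males and 209 FPKM in those of hermaphrodites at 9.5 hr, and 469 FPKM in whole males and 239 FPKM in whole hermaphrodites. At 15 hr the sum was 999 FPKM in gonadal cells of males and 625 FPKM in those of hermaphrodites, and 1635 FPKM in whole males and 1475 FPKM in whole hermaphrodites. In this order of comparisons males had 1.03, 1.96, 1.60 and 1.11 times the hermaphrodite sum of the markers, where the summed level of the 10 peptide genes was 1.51, 1.69, 1.25 and 1.46 times the hermaphrodite sum. Without *nhr-25* and *che-14*, which carried much of the marker sum in sorted cells at 9.5 hr, the other 11 markers were at 0.834, 2.15, 2.02 and 1.105 times. Marker sums of several other tissues were also higher in males in sorted cells. At 9.5 hr the male sum in gonadal cells was 1.52 times the hermaphrodite sum for body wall muscle, with 5 of 5 genes higher, 1.77 times for the intestine, with 5 of 5, and 1.64 times for the pharynx, with 2 of 2. It was 1.05 times for neurons, with 3 of 5 genes higher, and 0.938 times for coelomocytes, with 1 of 2. For the germline it was 0.914 times, with 2 of 5. At 15 hr it was 2.07 times for body wall muscle, with 5 of 5 genes higher, and 1.84 times for coelomocytes, with 2 of 2. It was 1.51 times for the germline, with 5 of 5, and 1.31 times for the intestine, with 3 of 5. For neurons it was 1.24 times, with 4 of 5, and for the pharynx 1.17 times, with 1 of 2. Of all genes kept, 52.0% at 9.5 hr and 56.4% at 15 hr were higher in males in gonadal cells. In whole animals the male sums of these 6 tissues were 0.631 to 1.47 times the hermaphrodite sums at 9.5 hr, highest in the pharynx, and 0.680 to 1.01 times at 15 hr. The part of these differences in the peptide ratios was not tested. In bulk samples a larger share of cells of a type and more RNA per cell cannot be told apart.

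Of the 13 epidermal markers, 7 were past 2-fold higher in males in whole animals at 9.5 hr, beside 2.04% of all genes kept. They were 6 cuticle collagens and the hedgehog-related gene *wrt-2*, which had a log2 ratio of 1.31. In gonadal cells at 9.5 hr 7 of the 13 had a ratio above 0, with a median of 0.28, and 0 were past 2-fold. At 15 hr 12 of 13 were above 0 in gonadal cells, with a median of 0.90. Past 2-fold there were 5 of 13, beside 8.47% of all genes kept. The collagen genes *dpy-5*, *dpy-7*, *dpy-10*, *dpy-13*, *rol-6* and *sqt-3* had log2 ratios of males over hermaphrodites of 1.32 to 2.91 in whole animals at 9.5 hr, and of 0.02 to 0.30 in whole animals at 15 hr. Over the same times *nlp-28* had 1.26 and 1.20, and *cnc-6* 1.56 and 1.36. Without the added 1, *cnc-6* was at 3.89-fold and 5.96-fold over the same times. For *elt-3*, the GATA factor of the epidermis, the ratio was 0.56 in gonadal and 0.61 in whole-animal cells at 9.5 hr, and 0.66 in gonadal and 0.40 in whole-animal cells at 15 hr.

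The second question was how gonadal cells differed from whole animals. Peptide transcripts were present in the sorted gonadal cells and mostly lower there than in whole animals. The summed level of the 10 genes in gonadal cells was 48.9% of the whole-animal sum in males against 54.7% in hermaphrodites at 9.5 hr, and 31.2% in males and 36.4% in hermaphrodites at 15 hr. The sum is dominated by *nlp-34*, and without *nlp-34* it was 48.1% in males against 48.2% in hermaphrodites at 9.5 hr, and 27.3% in males and 23.7% in hermaphrodites at 15 hr.

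The gene that departed from this pattern in both sexes was *nlp-29*, and *cnc-1* did so at 9.5 hr in males, with 5.14 FPKM in gonadal cells against 4.90 FPKM in whole animals. At 9.5 hr the level of *nlp-29* in gonadal cells was 111% of that in whole animals in males and 135% in hermaphrodites, which are log2 ratios of 0.15 and 0.43. At 15 hr it was 47.4% in males and 39.8% in hermaphrodites, or log2 ratios of -1.05 and -1.30. The neighbouring *nlp-28* had 73.3% in males against 68.8% in hermaphrodites at 9.5 hr, and 38.4% in males and 33.3% in hermaphrodites at 15 hr. At the other extreme *nlp-27* had 17.7% in males against 22.7% in hermaphrodites at 9.5 hr, and 14.9% in males and 15.2% in hermaphrodites at 15 hr. Genes of the same cluster therefore had gonadal levels that ranged from a small part of the whole-animal level to above it.

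By the 4-fold measure 4 of 10 members were lower in gonadal cells than in whole animals in males at 9.5 hr, beside 12.9% of all genes kept, and 3 of 10 in hermaphrodites, beside 14.9%. At 15 hr the counts were 4 of 9 in males, beside 16.1% of all genes, and 3 of 9 in hermaphrodites, beside 23.3%. The genes past this measure at 9.5 hr were *cnc-2*, *cnc-6*, *nlp-27* and *nlp-31* in males, and *cnc-1*, *nlp-27* and *nlp-31* in hermaphrodites, where *cnc-1* passed only through a value of 0 and 2 members remain without it. At 15 hr they were *cnc-4*, *nlp-27*, *nlp-30* and *nlp-31* in males, and *cnc-4*, *nlp-27* and *nlp-31* in hermaphrodites. Only *nlp-27* and *nlp-31* stood in all 4 of these counts, and in males at 9.5 hr *nlp-31* lay at the threshold itself, with a log2 ratio of -2.0002.

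At the 2-fold measure 5 of 10 members were lower in gonadal cells of males at 9.5 hr, beside 31.6% of all genes, and 6 of 10 in hermaphrodites, beside 37.3%. At 15 hr 7 of 9 were lower in males, beside 34.3% of all genes, and 8 of 9 in hermaphrodites, beside 37.7%. The hermaphrodite counts include *cnc-1* at 9.5 hr and *cnc-2* at 15 hr, each through a value of 0 in gonadal cells. No member was higher in gonadal cells by either measure. The median log2 ratio of the members was -1.34 in males against -1.20 in hermaphrodites at 9.5 hr, and -1.55 in males and -1.60 in hermaphrodites at 15 hr. The value of -1.60 is the ratio of *cnc-2*, which was at 0 in those gonadal cells. Over all genes kept these medians were -0.19 in males against -0.30 in hermaphrodites at 9.5 hr, and -0.05 in males and -0.09 in hermaphrodites at 15 hr, so that relative to the median gene the members were less far down at 9.5 hr than the ratios state. These comparisons share their gonadal and whole-animal groups with the comparisons of the sexes. The hermaphrodite values of the earlier time also set sorted cells with *rdIs4* against unsorted cells without it, and its part was not tested.

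**Figure D4:**
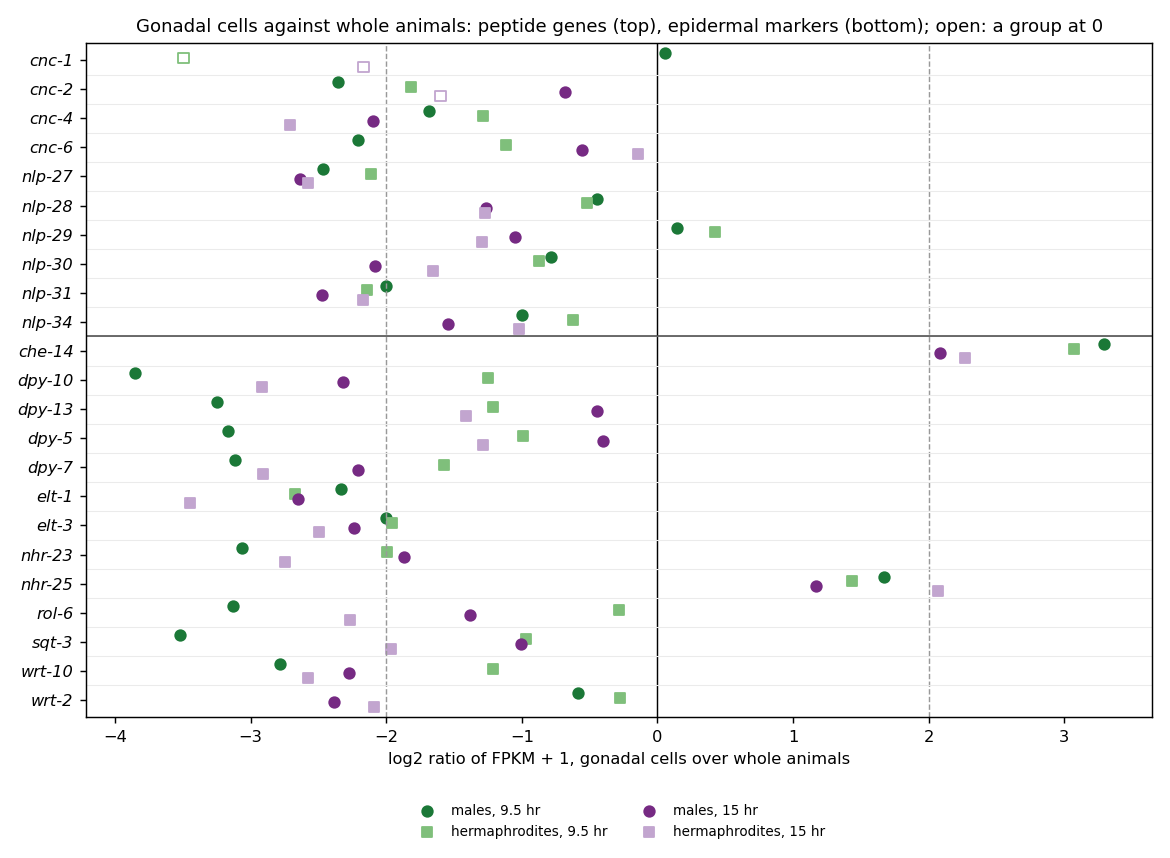
The log2 ratio of FPKM + 1 of gonadal cells over whole animals (x axis) for the 10 peptide genes (upper part) and the 13 epidermal marker genes (lower part), in males (circles) and hermaphrodites (squares) at 9.5 hr (green) and 15 hr (purple), with dashed lines at a 4-fold difference. Open symbols mark a group listed at 0. Of the peptide genes *nlp-29* lies right of 0 at 9.5 hr in both sexes, and *cnc-1* does in males by 0.06.

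Markers of the epidermis and of other tissues were present in the sorted cells as well. The summed epidermal markers in gonadal cells were 46.0% of the whole-animal sum in males against 87.5% in hermaphrodites at 9.5 hr, and 61.1% in males and 42.3% in hermaphrodites at 15 hr. Of the 13 markers, *nhr-25* and *che-14* were higher in gonadal cells in both sexes at both times, and the other 11 were lower. The sum of these 11 was 11.7% of the whole-animal sum in males against 30.2% in hermaphrodites at 9.5 hr, and 53.5% in males and 29.2% in hermaphrodites at 15 hr. The median log2 ratio over all 13 was -3.06 in males against -1.21 in hermaphrodites at 9.5 hr, and -1.87 in males and -2.27 in hermaphrodites at 15 hr. Past 4-fold lower were 10 of 13 in males and 1 of 13 in hermaphrodites at 9.5 hr. At 15 hr 6 of 13 in males and 8 of 13 in hermaphrodites were. Of all genes kept, the shares were 12.9% in males and 14.9% in hermaphrodites at 9.5 hr. At 15 hr these shares were 16.1% and 23.3%. The defining factors *elt-1* and *elt-3* had log2 ratios of gonadal cells over whole animals between -3.45 and -1.96.

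For the other tissues, the summed markers in gonadal cells as a percentage of the whole-animal sum ranged over the sexes and times from 23.4% to 50.4% in body wall muscle, from 33.9% to 41.5% in neurons and from 23.5% to 46.4% in the intestine. The range was 14.6% to 24.2% in the pharynx, 4.70% to 12.7% in coelomocytes and 20.1% to 36.9% in the germline. None of these marker genes was listed at 0 in gonadal cells. By gene the peptide transcripts at 9.5 hr spanned 11.8% for *cnc-6* to 111% for *nlp-29* in males, and, leaving out *cnc-1* at 0, 19.5% for *cnc-6* to 135% for *nlp-29* in hermaphrodites. The part of carried-over RNA from other cells in the gonadal levels of the peptide genes was not tested.

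The levels at 9.5 and 15 hr come from separate runs and are set side by side without a test. Whole hermaphrodites differ in strain as well, as only their later group carried *rdIs4*. In male gonadal cells 9 of the 10 members had a lower FPKM at 15 hr than at 9.5 hr, with a median log2 ratio of 15 over 9.5 hr of -1.49, and in hermaphrodite gonadal cells 9 of 10, with a median of -0.77. In whole animals it was 8 of 10 in males, with a median of -1.21, and 8 of 10 in hermaphrodites, with a median of -0.88. Counted as lower through a value of 0 at 15 hr were *cnc-1* in both groups of males and *cnc-2* in hermaphrodite gonadal cells. In hermaphrodite gonadal cells *cnc-1* was at 0 at both times and entered the median as a ratio of 0. Among the 16099 genes kept for this purpose 50.5%, 49.6%, 55.6% and 59.6% had a lower value at 15 hr in the same groups, with medians of -0.01, 0, -0.08 and -0.12.

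The genes differed in how far apart the values at both times stood. The largest gap in whole animals was that of *cnc-2*, with log2 ratios of 15 over 9.5 hr of -3.37 in males and -3.45 in hermaphrodites. It was followed by *nlp-28*, with -2.09 in males and -2.04 in hermaphrodites, if *cnc-1* with its value of 0 is left aside. In gonadal cells *nlp-28* had -2.91 in males and -2.79 in hermaphrodites, and *nlp-29* had -2.37 in males and -1.89 in hermaphrodites. There *nlp-27* had -1.89 in males and -2.27 in hermaphrodites. Through a value of 0 at 15 hr, *cnc-1* had -2.62 in male and *cnc-2* -3.23 in hermaphrodite gonadal cells. The genes that were not lower in whole animals at 15 hr were *cnc-4*, with 0.34 in males and 0.61 in hermaphrodites, and *nlp-30*, with 0.53 in males and 0.17 in hermaphrodites. The order of the sexes in *nlp-28* was the same at both times, although its level differed by more than 4-fold between the runs.

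Over the 8 groups the log2 levels of the members were positively correlated in all 45 pairs, with Pearson's r from 0.34 (*cnc-1* with *cnc-6*) to 0.96 (*cnc-4* with *nlp-30*) and a median of 0.73. The 8 points share runs and normalization and are pooled, so these values are descriptions only. Within the nlp cluster *nlp-28* was most like *nlp-29*, with r = 0.91, and *nlp-31* was most like *nlp-34*, with r = 0.96. Outside it, *nlp-28* was also close to *cnc-2*, with r = 0.93.

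Genes outside the set were compared with *nlp-28* and *cnc-6* by the same measure, over the 9670 genes with a mean of at least 10 FPKM. The gene whose pattern over the 8 groups was most like that of *nlp-28* was *sodh-1*, an alcohol dehydrogenase gene elsewhere on chromosome V, with r = 0.98. It had 144 FPKM in gonadal cells of males and 52.9 FPKM in those of hermaphrodites at 9.5 hr, and 212 FPKM in whole males and 92.6 FPKM in whole hermaphrodites. At 15 hr *sodh-1* had 22.1 FPKM in gonadal cells of males and 7.26 FPKM in those of hermaphrodites, and 70.0 FPKM in whole males and 31.8 FPKM in whole hermaphrodites. Its log2 ratios of males over hermaphrodites were 1.43 in gonadal and 1.19 in whole-animal cells at 9.5 hr, and 1.48 in gonadal and 1.12 in whole-animal cells at 15 hr, close in size to those of *nlp-28*. As *sodh-1* was picked by its pattern over these same 8 groups, the likeness of these ratios follows in part from that choice.

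Next to *sodh-1* came C15A11.7 and Y43C5A.3, each with r = 0.98, and T02H6.11 and *pqn-53*, each with r = 0.97. The ratio of males over hermaphrodites in Y43C5A.3 lay between 1.09 and 1.61 in the 4 comparisons. In T02H6.11 and *pqn-53* it lay between 0.01 and 0.16, so a high correlation did not require a difference of the size seen in *nlp-28*. For *cnc-6* the nearest gene was F12A10.1, with r = 0.92, whose log2 ratios of males over hermaphrodites were 0.90 in gonadal and 1.44 in whole-animal cells at 9.5 hr, and 1.55 in gonadal and 3.14 in whole-animal cells at 15 hr. It was followed by *cal-3*, F16B4.6, *alh-3* and T04A8.7, with r between 0.86 and 0.87.

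Other genes of the same families gave a mixed picture beside the 10 members. Of the 7 other cnc genes listed, 6 were kept at each time. In whole animals, 1 of them was higher in males by 4-fold at each time, namely *cnc-7* at 9.5 hr, with 41.5 FPKM in males and 8.32 FPKM in hermaphrodites, and *cnc-9* at 15 hr, with 16.5 FPKM in males and 1.69 FPKM in hermaphrodites. At 9.5 hr *cnc-9* was listed at 0 in whole males and above 0 in whole hermaphrodites. In gonadal cells *cnc-9* was listed at 0 in both sexes at both times. Between the sexes in gonadal cells none was past 4-fold at 9.5 hr, and at 15 hr *cnc-7* had a level of 0 in males and 3.89 FPKM in hermaphrodites. Of the 5 other nlp genes of the family, none differed 4-fold between the sexes in any of the 4 comparisons. The one with the largest ratio in whole animals at 9.5 hr was *nlp-26*, with 79.3 FPKM in males and 32.7 FPKM in hermaphrodites, and at 15 hr *nlp-26* had 16.8 FPKM in males and 21.6 FPKM in hermaphrodites. The steady male excess of *nlp-28* was thus not seen in *nlp-26*, although no test of that difference could be made.

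In gonadal cells against whole animals the other cnc genes were lower by 4-fold in 2 of 6 in males and 3 of 6 in hermaphrodites at 9.5 hr, and in 6 of 6 in males and 4 of 6 in hermaphrodites at 15 hr. The shares of all genes given above for the same comparisons apply. Of the 6 abf genes, which encode antibacterial factors, 5 were kept at each time and none was past 4-fold between the sexes, while *abf-5* and *abf-6* were lower in gonadal cells by 4-fold in both sexes at both times. The larger group of 36 fip and fipr genes, named for induction by fungi, differed both ways between the sexes. In whole animals 5 were higher and 2 lower in males by 4-fold among 32 kept at 9.5 hr, and 0 higher and 2 lower among 24 kept at 15 hr. In gonadal cells 2 were higher and 2 lower at 9.5 hr, and 1 higher and 2 lower at 15 hr. Of all genes kept, the share lower in males by 4-fold was 0.247% in gonadal and 0.512% in whole-animal cells at 9.5 hr, and 1.04% in gonadal and 0.43% in whole-animal cells at 15 hr, beside the shares higher in males given above. Some of these fip and fipr genes reached the measure through a value of 0, as *fipr-14* at 15 hr did.

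The epidermal p38 pathway that acts on *nlp-29* showed mostly small differences between the sexes. All 15 of its genes were kept at both times, and on the scale of FPKM + 1 none was past 4-fold between males and hermaphrodites in gonadal cells or whole animals at either time. The p38 kinase gene *pmk-1* had 66.7 FPKM in whole males and 66.9 FPKM in whole hermaphrodites at 9.5 hr, and 64.6 FPKM in whole males and 62.9 FPKM in whole hermaphrodites at 15 hr. The medians of the list were 0.20 in gonadal and 0.13 in whole-animal cells at 9.5 hr, and 0.12 in gonadal and 0.02 in whole-animal cells at 15 hr. At the 2-fold measure 2 of the 15 were higher in males in gonadal cells at 15 hr, beside 8.47% of all genes kept. One was *sta-2*, with 2.55 FPKM in males and 0.373 FPKM in hermaphrodites. The other was the protein kinase C gene *tpa-1*, with 16.5 FPKM in males and 7.39 FPKM in hermaphrodites. Without the added 1, the levels of *sta-2* there would be past 4-fold apart.

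Genes of the same pathway differed in their gonadal levels. At 9.5 hr *sta-2* had 7.23 FPKM in gonadal cells of males and 4.50 FPKM in those of hermaphrodites, against 32.3 FPKM in whole males and 28.2 FPKM in whole hermaphrodites. The receptor gene *dcar-1* had 95.4 FPKM in gonadal cells of males and 68.3 FPKM in those of hermaphrodites, against 37.0 FPKM in whole males and 23.4 FPKM in whole hermaphrodites. Of the 15 genes, 0 were higher and 2 lower by 4-fold in gonadal cells of either sex at 9.5 hr, and at 15 hr 1 was higher and 1 lower in males and 0 higher and 2 lower in hermaphrodites. Of all genes kept, 3.06% in males and 2.51% in hermaphrodites were higher in gonadal cells by 4-fold at 9.5 hr, and 3.01% in males and 3.21% in hermaphrodites at 15 hr. The 2 of 15 lower at 9.5 hr stand beside the 12.9% and 14.9% of all genes given above, so these counts were near the background.

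None of the 6 genes of the TGF-beta pathway that acts on *cnc-2* was past 2-fold between the sexes in any comparison. The ligand gene *dbl-1* had 11 FPKM in whole males and 13.3 FPKM in whole hermaphrodites at 9.5 hr, where *cnc-2* was higher in males. The type I receptor gene *sma-6* had 2.92 FPKM in gonadal cells of males and 1.73 FPKM in those of hermaphrodites at 9.5 hr, against 14.5 FPKM in whole males and 14.7 FPKM in whole hermaphrodites. Like *cnc-2*, *sma-6* was thus lower in the sorted cells at 9.5 hr, but the list as a whole was split. Of the 6 genes, 3 were higher and 3 lower in gonadal cells of males at 9.5 hr, and 2 were higher and 4 lower in those of hermaphrodites.

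Osmotic stress induces *nlp-29*, and genes of the osmotic response and cuticle state were therefore listed beside it. The glycerol synthesis gene *gpdh-1*, an osmotic response gene, had 64.3 FPKM in gonadal cells of males and 34.5 FPKM in those of hermaphrodites at 9.5 hr, against 7.27 FPKM in whole males and 8.82 FPKM in whole hermaphrodites. At 15 hr *gpdh-1* had 22.7 FPKM in gonadal cells of males and 11.01 FPKM in those of hermaphrodites, against 6.70 FPKM in whole males and 11.9 FPKM in whole hermaphrodites. Together with *nlp-29*, *gpdh-1* was thus above its whole-animal level in gonadal cells at 9.5 hr in both sexes. A further osmotic response gene, *hmit-1.1*, was lower in gonadal cells at 9.5 hr. It had 0.850 FPKM in males and 0.567 FPKM in hermaphrodites, against 6.20 FPKM in whole males and 3.00 FPKM in whole hermaphrodites. Of the 9 genes listed, 7 in males and 6 in hermaphrodites were lower in gonadal cells at 9.5 hr. Past 4-fold lower were 4 in males and 1 in hermaphrodites, beside 12.9% and 14.9% of all genes kept. Past 4-fold higher were 2 in males and 0 in hermaphrodites, beside 3.06% and 2.51%. All samples had passed sucrose flotation, cuticle disruption and protease treatment before RNA was taken, and the part of these steps in the levels was not tested.

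Of the 9 genes in the osmotic and cuticle list, 1 was higher in males by 4-fold in whole animals at 9.5 hr, the collagen gene *dpy-8*, with 47.1 FPKM in males and 8.30 FPKM in hermaphrodites, and none was in whole animals at 15 hr. In gonadal cells none was past 4-fold between the sexes at either time. The Notch co-ligand gene *osm-11* was the one with the largest ratio in gonadal cells at 9.5 hr, with 29.4 FPKM in males and 10.1 FPKM in hermaphrodites. Loss of cuticle furrow collagens such as DPY-7, DPY-9 and DPY-10 is known to induce *nlp-29*. The genes for all of these had higher levels in male than in hermaphrodite whole animals at 9.5 hr, where *nlp-29* was higher in males too. In whole animals at 15 hr *nlp-29* had a log2 ratio of -0.10, and the small ratios of *dpy-7* and *dpy-10* there are given above. Over all 9 genes of the list, *dpy-9* among them, the ratios there ran from -0.74 to 0.32, with 5 above 0. A relation of these levels to the induction by collagen loss was not tested.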

How the data were processed

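Libraries were made by the authors with the TruSeq protocol after removal of ribosomal RNA and without poly-A selection, and single-end reads of 50 bases were obtained. The submitters' processing notes name CASAVA 1.8, TopHat 1.4.1, Picard 1.56 and Cuffdiff 2.1.1, and reads were mapped to ce10 (WS220). The authors deposited 2 tables, 1 Cuffdiff run for each time, each with 4 groups and 6 pairwise comparisons. The deposited FPKM values were computed by the authors with Cuffdiff, which gave 1 value per gene for all samples of a group together. Depth per sample is therefore unknown, and no standard deviation, interval, test or paired fit could be made. Columns with the authors' fold changes, test statistics, p-values, q-values and calls were not used. Unused per-sample columns numbered 0.

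The tables name groups by strain, and the strains were tied to sex and cell type through the study's methods. Of 19861 named genes, 5 listed at different positions in the runs were left out, along with 1 row without a gene name per table, and 19 entries that merge several genes were kept as listed. Per gene, log2 ratios of FPKM + 1 were computed with Python 3.11.15, pandas 2.3.3 and numpy 2.4.6 in 8 comparisons, over genes with a mean of at least 1 FPKM in the run. Log2 ratios of 2 and of 1 served as measures of size. The ratio script was tested on simulated data. Coordinates are 1-based on ce10, and names, exons and transcript lengths come from the WBcel235 annotation, in which all 10 members were found. The members, lists and measures were chosen with earlier results of these data known. Lists held the other cnc and nlp genes, abf, fip and fipr genes, the p38 and TGF-beta pathways, osmotic and cuticle genes and tissue markers, of which *myo-1* was not analysed. Of a list, the genes past the measure or those with the largest ratios are named, along with genes of known role whose values were seen beforehand. Genes between members within 20 kb, and the 5 genes most correlated with *nlp-28* and with *cnc-6* over the 8 groups at a mean of at least 10 FPKM, are named as well. Alternatives were pseudocounts of 0.1 and 5 FPKM, no filter, a mean of at least 10 FPKM, groups scaled to equal sums, and ratios centred on the median gene.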

Additional observations from a re-analysis of the deposited data

How the results depend on the processing

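The counts of members past 4-fold were recomputed under each alternative. With a pseudocount of 5 FPKM they were 0 in gonadal cells between the sexes at 9.5 hr (1 as reported), 2 in males (4) and 1 in hermaphrodites (3) for gonadal cells against whole animals at 9.5 hr, and 1 in males at 15 hr (4). With a pseudocount of 0.1 FPKM they were 1 in gonadal cells and 1 in whole animals between the sexes at 15 hr (0 and 0), and 5 for gonadal cells against whole animals in hermaphrodites at 15 hr (3). With a mean of at least 10 FPKM the count in gonadal cells between the sexes at 9.5 hr was 0, as *cnc-1* was no longer kept. Without a filter the count in whole animals between the sexes at 15 hr was 1, *cnc-1* being lower in males. Scaling each group to the same sum gave 1 in gonadal cells and 1 in whole animals between the sexes at 15 hr. Centring on the median gene left 1 in hermaphrodites for gonadal cells against whole animals at 9.5 hr, where the median gene stood at -0.30. In that comparison the share of genes past 4-fold that were higher in gonadal cells was 14.4% as reported and 27.9% after centring. At the 2-fold measure the counts were 2 in each comparison of the sexes, and 6 in hermaphrodites at 9.5 hr, 7 in males and 8 in hermaphrodites at 15 hr for gonadal cells against whole animals.

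Of 320 recomputed member ratios, none changed direction, and 26 differed by more than 1.5 times from the reported ratio, 11 with a pseudocount of 0.1 FPKM and 15 with one of 5 FPKM. A pseudocount cannot change the direction of a ratio. Only scaling to equal sums and centring on the median gene, with 80 ratios each, could have done so. No paired analysis was possible because the deposited values are pooled over the samples of a group, and no sample could be left out for the same reason. The cause of these shifts beyond the settings themselves was not tested. Unknown depth limits most the genes at or near 0 FPKM, *cnc-1*, *cnc-6* and, at 15 hr, *cnc-2*.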
